A study of Mus musculus with 8 samples.

Results

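The genes described here encode enzymes that write and erase marks on histones and DNA: histone deacetylases, sirtuins, lysine demethylases, lysine methyltransferases, lysine acetyltransferases, DNA methyltransferases and TET dioxygenases. They were chosen by symbol, as any gene named Hdac, Sirt or Kdm with a number or named Setd, together with a fixed set of other methyltransferases, acetyltransferases and DNA methylation enzymes; Kdm5c, Kdm5d and Kdm6a were left out. Of 55681 probes on the array, 85 belonged to 59 such genes, and 58 of these genes were measured. Kdm4d, a testis demethylase, was above background on 0 of 8 arrays, and no probe was matched to Setdb2, Kdm4dl or Hdac1-ps.

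Acetyl groups on histone tails loosen chromatin, and deacetylases remove them as part of corepressor complexes. Methyl groups act by position: some mark silent chromatin, such as those added by the Suv39h and Ehmt enzymes or by the Polycomb enzymes Ezh1 and Ezh2, and others mark active genes. In fat cells, several of these enzymes are known to restrain or permit the switch from a white, storing state to a brown, heat-producing one, among them Hdac3, Hdac9, Hdac11, Kdm1a, Kdm3a, Ehmt1 and Sirt1.

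RNA was profiled from the inguinal white fat pad, a subcutaneous depot, in 4 samples from control mice (Senp2flox/flox) and 4 from Senp2-aKO mice (Senp2flox/flox ; Adipoq Cre). All mice carried the loxP-flanked Senp2 alleles, and in Senp2-aKO mice the Adipoq promoter restricts Cre to adipocytes, so other cells of the pad keep the gene. Senp2 encodes a protease that removes SUMO from proteins, and the series asks whether it holds back the browning of white fat. The mice were 8 weeks old when a diet with 58 kcal% fat began and stayed on it for 12 weeks, housed between 22 and 24 °C. Each numbered sample is labelled as from a mouse, but the labels do not state that the numbers are different animals, so p-values measure the spread between these samples.

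Values are log2 signals relative to the 75th percentile of the same array, so 0 is the level of that percentile and a difference of 1 is a 2-fold change. Fold changes are Senp2-aKO relative to control, tested with limma over 14730 genes, with 0.05 as the limit for the Benjamini-Hochberg adjusted p. The 75th percentile itself was 408 to 446 in controls and 324 to 382 in Senp2-aKO arrays, and no spot of these genes was saturated. All 10 adipocyte markers, such as Adipoq and Plin1, were above background on all 8 arrays. Senp2 itself ranged from 2.37 to 2.52 in controls and from 2.12 to 2.22 in Senp2-aKO arrays (-0.27 on the log2 scale with an SE of 0.08, adjusted p = 0.0507 by limma, n = 4 in each group), read by a probe whose place relative to the deleted exons is not given in the sources used here. The mean of 18 skeletal muscle markers was higher on every Senp2-aKO array (2.92 to 4.40) than on any control (-1.62 to 1.35), and the B and T lymphocyte means were highest on aKO 2 (2.03 and 1.76, against -3.05 to -0.37 and -1.57 to -0.40 on the other 7 arrays). Of the muscle markers 15 of 18 rose, and of mammary and skin epithelial markers 2 of 3 measured rose. Control arrays lay in one row of the slide and Senp2-aKO arrays in the other, so row and group cannot be told apart. In bulk tissue, fewer cells of a type and less RNA per cell cannot be told apart either.

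Of the 58 measured chromatin enzyme genes, 4 rose (Hdac4, Suv39h2, Ehmt1 and Tet2) and 5 fell (Dnmt3a, Hdac5, Hdac9, Hdac11 and Kdm1b) in Senp2-aKO fat. Of these, Ehmt1 rose on 1 of its 2 probes only (0.68, the other -0.38; mean of both 0.15, limma adjusted p = 0.364). Hdac11 was above background in controls alone and met the filter through that group, so its call supports no count; 4 falls remain without it. The other 57 genes were above background on all 8 arrays. The called shares of the 58, 6.9% higher and 8.62% lower, still count Ehmt1 and Hdac11. They lie near those over all genes tested, of which 7.29% rose and 7.12% fell. The median log2 fold change of the 58 genes was -0.10, against -0.02 over all genes, and their median size of change without regard to sign was 0.18, against 0.24. The groups did not overlap in 21 of the 58: every control exceeded every Senp2-aKO array in 15 (25.9%, against 15.1% over all genes) and the reverse held in 6 (10.3%, against 11.2%). Hdac11 is counted in the 15, and Ehmt1, by its brighter probe, in the 6. The number of lower calls was 2 without control 1 or control 3, 3 without control 2, control 4, aKO 1 or aKO 4, and 9 without aKO 2. The number of higher calls was 0 without control 1 or control 3, and 1 without control 4, aKO 1 or aKO 4. With the muscle marker mean as a covariate 0 of the 58 passed, and over all 14730 genes 1 was higher and 0 lower. The unadjusted limma p was then 0.397 for Kdm1b and 0.125 for Tet2, and under 0.05 for the other 7, Hdac11 among them. Those genes were chosen by their p in the same arrays. The share of all genes with an unadjusted p under 0.05 in that fit is not given, so this is no separate support. The muscle mean separates the groups, and the SE of Dnmt3a, for example, was 0.27 with it and 0.13 without. How far muscle RNA enters these values was not tested.

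**Figure D1:**
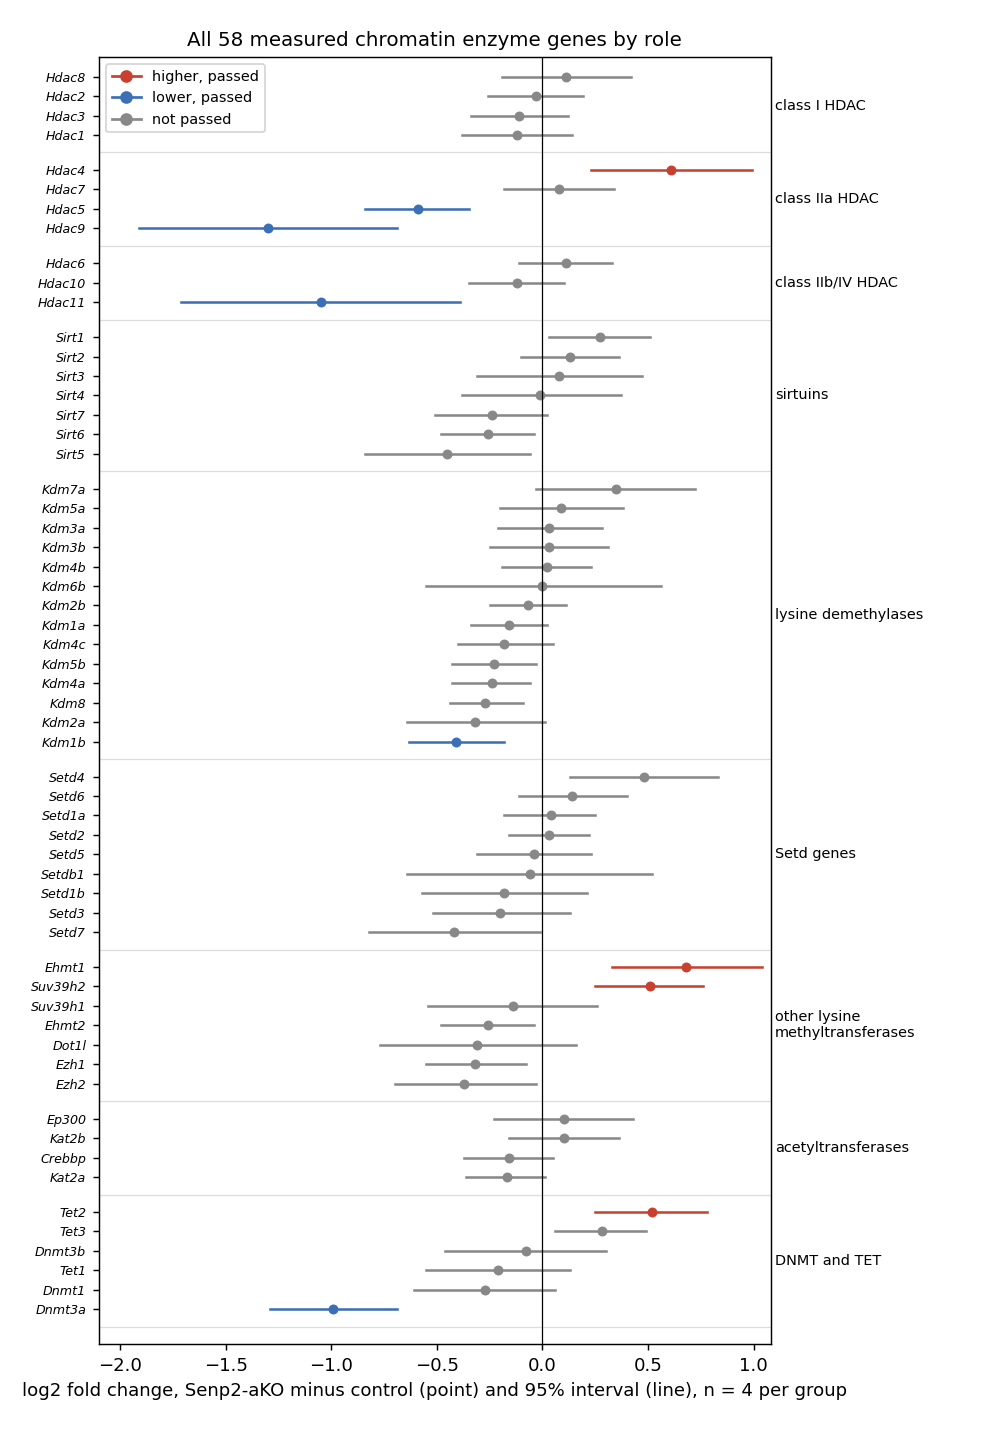
Log2 fold changes of the 58 measured genes, Senp2-aKO minus control, with 95% intervals from limma (horizontal axis) and genes grouped by role (vertical axis). Red points rose, blue points fell and grey points did not pass; the changes run from -1.30 for Hdac9 to 0.68 for Ehmt1.

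The class IIa deacetylases, which shuttle between cytoplasm and nucleus and bind MEF2 transcription factors, moved in different directions. Hdac9, known as a brake on fat cell differentiation, had values of 0.40, -0.12, 0.45 and 0.26 in controls and -1.16, -1.69, -0.38 and -0.97 in Senp2-aKO arrays. Every Senp2-aKO array lay below every control, with aKO 2 lowest. Hdac9 thus fell to 40.6% of control (95% interval 26.6 to 61.95; -1.30 on the log2 scale with an SE of 0.27, adjusted p = 0.0189 by limma, n = 4 in each group). Hdac5, a signal-responsive repressor of the same class, read 4.71, 4.72, 4.62 and 4.78 in controls and 4.17, 3.92, 4.33 and 4.05 in Senp2-aKO arrays. The groups were far apart relative to their spread (SD 0.07 and 0.18), and Hdac5 fell to 66.4% of control (-0.59 on the log2 scale with an SE of 0.11, adjusted p = 0.0136). Hdac4, the third of these regulators, went the other way, from -0.31, -0.26, -0.54 and -0.20 to 0.36, 0.70, 0.05 and 0.01. The lowest Senp2-aKO array, aKO 4, still lay above the highest control, and Hdac4 rose 1.53-fold (0.61 on the log2 scale with an SE of 0.17, adjusted p = 0.0453). Hdac7, best known from endothelium and thymus, overlapped between groups, with a log2 fold change of 0.08 (95% interval -0.18 to 0.34). The fall of Hdac5 passed in all 8 omissions of 1 array. That of Hdac9 did not pass without control 1 (adjusted p = 0.0603) or control 3 (0.0549), and the rise of Hdac4 passed only without aKO 2 (0.0399) or aKO 3 (0.0404), with adjusted p from 0.0512 to 0.116 in the other 6. Hdac4 also did not pass with the normexp background model (0.0533) or without the filter on background (0.0726).

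The promoters of the 3 class IIa genes that passed are shown because their levels went different ways and this class works through MEF2 factors. Of these factors, Mef2a passed on 1 of its 2 probes. The windows are the 250 bases before the start from RefSeq, build GRCm38.p6, all on the minus strand, at chr11:102230173-102230422 for Hdac5, chr12:34528890-34529139 for one of the 2 listed starts of Hdac9, and chr1:92180342-92180591 for Hdac4. Capitals mark a match to a loose MEF2 pattern (CTA, any 4 bases, TAG), which reads the same on both strands. The pattern allows any base in the middle, where the MEF2 motif itself holds A or T.
Hdac5: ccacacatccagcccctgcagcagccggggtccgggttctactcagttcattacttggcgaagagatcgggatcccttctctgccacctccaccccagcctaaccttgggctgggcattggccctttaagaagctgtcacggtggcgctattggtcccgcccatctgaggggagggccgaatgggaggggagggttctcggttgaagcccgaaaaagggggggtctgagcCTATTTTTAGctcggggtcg
Hdac9: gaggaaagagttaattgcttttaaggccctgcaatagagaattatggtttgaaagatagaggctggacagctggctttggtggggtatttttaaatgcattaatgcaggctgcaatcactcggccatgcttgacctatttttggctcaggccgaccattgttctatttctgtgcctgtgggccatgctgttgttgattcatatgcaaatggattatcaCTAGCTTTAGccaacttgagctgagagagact
Hdac4: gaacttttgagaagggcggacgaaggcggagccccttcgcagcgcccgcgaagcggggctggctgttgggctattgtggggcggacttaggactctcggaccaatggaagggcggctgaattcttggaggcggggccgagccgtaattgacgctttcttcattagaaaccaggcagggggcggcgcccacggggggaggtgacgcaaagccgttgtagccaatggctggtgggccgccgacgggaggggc

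The match began 20 bases before the start in Hdac5 (CTATTTTTAG) and 32 bases before it in Hdac9 (CTAGCTTTAG). These are the 2 genes of the class that fell, and a link between the pattern and the fall was not tested. The middle bases are all T in Hdac5 but include G and C in Hdac9, so the Hdac9 match is to the loose pattern only. No match lay in the window of Hdac4, in the other listed window of Hdac9 or in any listed window of Hdac7, which did not pass. Windows of 300 bases held 250 before and 50 after the start. The loose pattern was present in 3 of 69 such windows of the measured genes (4.35%), the third being that of Hdac2, which did not pass (-0.03). It was present in 3.69% of all 32851 windows. These are matches of letters and not sites. Windows were listed for 49 of the 58 genes. The C/EBP motif TTGCNNAA, searched because the series concerns C/EBPβ, was in 4 of the 69 windows (5.8%), those of Kdm4c, Setdb1, Suv39h1 and Sirt7, against 10.8% of all windows; 0 of the 12 windows of genes that passed held it. The windows held a median of 24 CpG dinucleotides, against 7 over all windows. The windows of Hdac9 held 0 and 3, that of Hdac5 18 and that of Hdac4 32.

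Mef2a, one of the MEF2 factors, rose 2.06-fold (1.04 on the log2 scale with an SE of 0.17, adjusted p = 0.00938 by limma, n = 4 in each group), from 1.27, 1.60, 1.38 and 1.63 in controls to 2.65, 2.72, 2.06 and 2.62. A second, dimmer Mef2a probe did not pass and gave -0.13 (SE 0.12), so the 2 probes differ. MEF2 factors are abundant in skeletal muscle, whose marker mean was higher on the same arrays. The part of muscle RNA in the Mef2a values was not tested. Of 3 measured MEF2 genes 1 passed. Named after their values were seen, Mef2c gave -0.69 (limma adjusted p = 0.121) and Mef2d 0.23 (0.233).

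Among the other zinc-dependent deacetylases, Hdac11, the only class IV enzyme and known as a repressor of heat production in fat, was dim. It read -3.98, -3.76, -3.79 and -3.92 in controls and -5.74, -4.30, -4.52 and -5.10 in Senp2-aKO arrays. It was well above background on 4 of 4 control arrays and on 0 of 4 Senp2-aKO arrays, so the size of a difference cannot be read. Each Senp2-aKO signal was also replaced by the dimmest signal called above background on that array, where that was higher. The control mean was then 1.64-fold higher. That value has no interval and is not a lower limit. The limma adjusted p (0.0463) rests on Senp2-aKO signals below background, in a gene kept through its controls, and is no support for a fall. It was 0.0740 without the filter, and the stricter filter on all arrays removed the gene. It passed only without aKO 2 (adjusted p = 0.0219) or aKO 3 (0.0415) among the 8 omissions, and with the normexp background model the log2 fold change was -0.05. The class I enzymes did not pass: Hdac1 and Hdac2, catalytic subunits of NuRD, CoREST and Sin3, Hdac3, that of NCoR, and Hdac8. Their log2 fold changes were -0.12 (95% interval -0.38 to 0.14), -0.03 (-0.26 to 0.19), -0.11 (-0.34 to 0.12) and 0.11 (-0.19 to 0.42). The widest of these intervals reach down to 76.7% of control for Hdac1 and up to 134% for Hdac8. With the muscle mean as a covariate the signs of Hdac1 and Hdac3 turned (0.16 and 0.09). The class IIb enzymes Hdac6, a tubulin deacetylase, and Hdac10, a polyamine deacetylase, gave 0.11 (-0.11 to 0.33) and -0.12 (-0.35 to 0.10). Of the 11 deacetylases of the zinc-dependent classes, 1 rose and 3 were called lower, with a median of -0.11. Hdac11 is 1 of the 3, and its call supports no count. Of all genes, 7.29% rose and 7.12% fell.

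Sirtuins are deacylases that need NAD and link chromatin and mitochondria to the energy state. Of 7 measured, 0 passed by limma; before adjustment, 1 higher and 2 lower had a p under 0.05, a limit met by 14.7% (higher) and 17.6% (lower) of all genes. Sirt1, which deacetylates PPARγ and PGC-1α, read 0.90, 0.97, 0.80 and 0.82 in controls and 1.04, 1.35, 1.19 and 0.98 in Senp2-aKO arrays. The groups did not overlap, although aKO 4 at 0.98 lay barely above control 2 at 0.97 (log2 fold change 0.27, 95% interval 0.03 to 0.51, adjusted p = 0.116). Sirt5, a mitochondrial desuccinylase, read 1.35 to 1.60 in controls and 0.55 to 1.35 in Senp2-aKO arrays, with aKO 2 far below the others (log2 fold change -0.45, adjusted p = 0.114). It passed once the B lymphocyte mean entered as covariate (adjusted p = 0.0326). The chromatin-bound Sirt6 was lower on all 4 Senp2-aKO arrays (-0.26, 95% interval -0.48 to -0.04, adjusted p = 0.101), and its second probe gave -0.11 (SE 0.13). Sirt3, the main deacetylase of the mitochondrial matrix, overlapped between the groups (2.41 to 3.13 in controls and 2.66 to 3.07 in Senp2-aKO arrays; log2 fold change 0.08, 95% interval -0.31 to 0.47) and turned to -0.07 without control 3.

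Of the 14 measured lysine demethylases 1 fell, 0 rose and 13 did not pass, with a median of -0.12. Of all genes, 7.12% fell and 7.29% rose, with a median of -0.02. Kdm1b, a flavin-dependent demethylase of H3K4 known from the setting of imprints in oocytes, read 1.55, 1.51, 1.34 and 1.4 in controls and 1.12, 0.86, 1.13 and 1.07 in Senp2-aKO arrays. The groups were separate, and Kdm1b fell to 75.5% of control (95% interval 64.6 to 88.2; -0.41 on the log2 scale with an SE of 0.10, adjusted p = 0.0310 by limma, n = 4 in each group). It passed only without aKO 2 (adjusted p = 0.0287) or aKO 3 (0.0376), and was between 0.0551 and 0.0965 in the other 6 omissions. With the muscle mean as a covariate its log2 fold change was -0.20.

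Its relative Kdm1a (LSD1), which demethylates the same residue within CoREST and is needed for beige fat, read 2.34, 2.25, 2.36 and 2.30 in controls and 2.11, 2.12, 2.24 and 2.11 in Senp2-aKO arrays. The highest Senp2-aKO array lay just below the lowest control, and the difference did not pass (log2 fold change -0.16, 95% interval -0.34 to 0.02, limma adjusted p = 0.187). A further 3 enzymes, of the JmjC type, were separated in the same direction without passing. Of all genes, passed or not, 15.1% were separated in this direction. Kdm8 lay at -0.77 to -0.83 in controls and -0.99 to -1.12 in Senp2-aKO arrays (-0.27, limma adjusted p = 0.0508). Kdm4a gave -0.24 (0.0825, second probe 0.20, mean of both -0.02). Kdm5b, named after its values were seen, gave -0.23 (0.107, second probe -0.14). Kdm3a, the H3K9 demethylase whose loss is known to cause obesity in mice, overlapped (0.99 to 1.05 and 0.92 to 1.32; log2 fold change 0.03, 95% interval -0.21 to 0.28). Its value turned to -0.06 without aKO 2. Kdm7a, with H3K9 and H3K27 as substrates, read -1.99 to -1.57 and -1.66 to -1.04 on its brightest probe (0.35, adjusted p = 0.182). Its second probe was separate between groups, from -2.45 to -2.19 up to -1.86 to -1.44, and passed over the 30508 probes tested (0.55, SE 0.13, adjusted p = 0.0323). Kdm6b, an H3K27 demethylase, was named after its values were seen for its spread: aKO 3 stood at 2.61 against 1.46 to 1.81 on the other 3 Senp2-aKO arrays.

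Of 7 further lysine methyltransferases 2 were called higher, Suv39h2 and, on 1 of its 2 probes only, Ehmt1. Of the others 0 fell and 5 did not pass. Over all genes 7.29% rose and 7.12% fell. Suv39h2, which trimethylates H3K9 at constitutive heterochromatin, read 4.14, 4.33, 4.05 and 4.36 in controls and 4.86, 4.78, 4.57 and 4.69 in Senp2-aKO arrays. The groups did not overlap, and Suv39h2 rose 1.42-fold (95% interval 1.19 to 1.69; 0.51 on the log2 scale with an SE of 0.11, adjusted p = 0.0221 by limma, n = 4 in each group). Its promoter window holds the one CRE motif (TGACGTCA, the cAMP response element) among the 69 windows, a motif present in 1.79% of all windows, and is shown for that reason with the match in capitals (RefSeq, GRCm38.p6, minus strand, chr2:3474987-3475236).
Suv39h2: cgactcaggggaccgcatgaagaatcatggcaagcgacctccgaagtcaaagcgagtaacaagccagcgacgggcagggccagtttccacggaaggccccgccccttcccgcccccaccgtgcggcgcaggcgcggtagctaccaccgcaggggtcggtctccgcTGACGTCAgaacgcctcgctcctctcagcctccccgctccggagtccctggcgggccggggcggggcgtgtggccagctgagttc

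The match began 85 bases before the start. The Suv39h2 call ended without control 1 (adjusted p = 0.0718), control 3 (0.0618), aKO 1 (0.0559) or aKO 4 (0.0504). Its paralogue Suv39h1 overlapped between the groups (log2 fold change -0.14, 95% interval -0.54 to 0.26).

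Ehmt1, the H3K9 methyltransferase that works with PRDM16 in brown fat, was read by 2 probes of the same RefSeq transcript, with values that differed in opposite directions. The brighter probe read 3.82, 4.08, 3.70 and 3.98 in controls and 4.58, 4.94, 4.28 and 4.51 in Senp2-aKO arrays, a rise of 1.61-fold (0.68 on the log2 scale with an SE of 0.15, adjusted p = 0.0250 by limma, n = 4 in each group). The dimmer probe read 1.68, 1.7, 1.72 and 1.73 in controls and 1.5, 1.35, 1.31 and 1.15 in Senp2-aKO arrays (-0.38, SE 0.10, adjusted p = 0.0503 over all probes). Each probe separated the groups completely, one upward and one downward, so the rise holds for the brighter probe only. With the mean of both probes in place of the brighter one, the log2 fold change was 0.15. The call on the brighter probe passed only without control 2, aKO 2 or aKO 3, with adjusted p from 0.0540 to 0.0759 in the other 5 omissions. Ehmt2 (G9a), the partner of Ehmt1, was lower on all 4 Senp2-aKO arrays without passing (5.53 to 5.78 and 5.29 to 5.52; -0.26, adjusted p = 0.102).

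**Figure D2:**
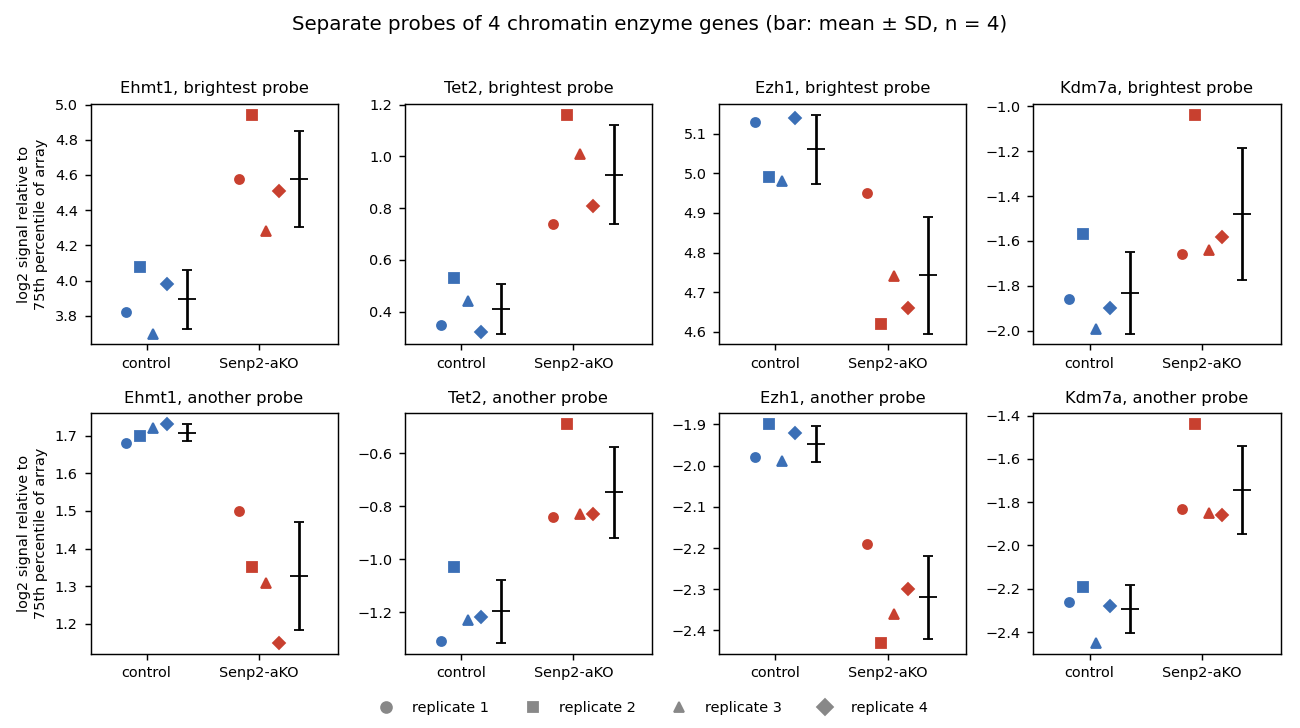
Log2 signal relative to the 75th percentile of the array (vertical axis) for 2 probes each of Ehmt1, Tet2, Ezh1 and Kdm7a in control (blue) and Senp2-aKO (red) arrays; marker shapes are replicate numbers and bars are mean ± SD (n = 4). The Ehmt1 probes move apart (0.68 and -0.38), whereas the pairs of Tet2 (0.52 and 0.45), Ezh1 (-0.32 and -0.37) and Kdm7a (0.35 and 0.55) share a sign.

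The Polycomb methyltransferases, which deposit H3K27 methylation, did not pass on their brightest probes. Ezh1, the form of resting cells, read 5.13, 4.99, 4.98 and 5.14 in controls and 4.95, 4.62, 4.74 and 4.66 in Senp2-aKO arrays (-0.32 on the log2 scale with an SE of 0.10, adjusted p = 0.0716 by limma, n = 4 in each group). Its 3 probes gave -0.32, -0.37 and -0.32, and that at -0.37 passed over all probes (adjusted p = 0.0400). Ezh2, the form of dividing cells, lay within -0.27 to -0.25 in controls and spread from -1.05 to -0.33 in Senp2-aKO arrays (-0.37, adjusted p = 0.131). It passed without aKO 2 (0.0489), the array with the highest lymphocyte means. The mean of 11 cell division markers was -0.27 to 0.32 in controls, 0.13 on aKO 2 and -1.01 to -0.46 on the other 3 Senp2-aKO arrays; its part in the Ezh2 values was not tested. Dot1l, the H3K79 methyltransferase, overlapped (-0.31, 95% interval -0.77 to 0.16).

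Of 9 genes named Setd, which share the SET methyltransferase domain, 0 passed by limma; before adjustment, 1 higher and 1 lower had a p under 0.05, against 14.7% and 17.6% of all genes. Setd4 read 1.28, 1.46, 1.76 and 1.30 in controls and 1.86, 2.22, 1.69 and 1.97 in Senp2-aKO arrays, with an overlap of control 3 and aKO 3 (0.48 on the log2 scale with an SE of 0.15, adjusted p = 0.0693). It passed without aKO 3 (0.0493). Setd7, which methylates H3K4 and other proteins, had the most negative fold change of these genes, with 3.65 to 4.11 in controls and 3.03 to 3.73 in Senp2-aKO arrays (-0.42, adjusted p = 0.144). Setd2, the H3K36 methyltransferase, was tight, with 1.91 to 2.0 and 1.90 to 2.10 (0.03, 95% interval -0.16 to 0.22); it is named after its values were seen.

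Of the 4 acetyltransferases, 0 passed by limma, and 0 had a p under 0.05 before adjustment. Crebbp and Ep300, the paired coactivators that acetylate H3K27 at enhancers, gave -0.16 (95% interval -0.37 to 0.05) and 0.10 (-0.23 to 0.43). Ep300 turned to -0.03 without aKO 2, where its value of -0.56 was the highest of all 8 arrays. Kat2a and Kat2b, the GCN5 and PCAF enzymes, gave -0.17 (-0.36 to 0.01) and 0.10 (-0.16 to 0.36); in Kat2a the groups did not overlap, with 0.92 to 1.11 in controls and 0.81 to 0.91 in Senp2-aKO arrays.

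DNA methylation enzymes held the smallest adjusted p of all 58 genes. Dnmt3a, which sets new DNA methylation, read 1.27, 1.03, 1.47 and 1.48 in controls and 0.46, 0.17, 0.46 and 0.22 in Senp2-aKO arrays. The lowest control, at 1.03, stood well above the highest Senp2-aKO arrays, at 0.46. Dnmt3a fell to 50.4% of control (95% interval 40.8 to 62.2; -0.99 on the log2 scale with an SE of 0.13, adjusted p = 0.00577 by limma, n = 4 in each group), and it passed in all 8 omissions (adjusted p from 0.00783 to 0.0240). With the muscle mean as a covariate its log2 fold change was -1.39 (SE 0.27, unadjusted p = 0.00113, adjusted p = 0.338). The other de novo enzyme, Dnmt3b, overlapped (-0.08, 95% interval -0.46 to 0.30; its other probes 0.03 and 0.19), as did Dnmt1, which copies methylation at replication (-0.27, 95% interval -0.61 to 0.06).

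Tet2, a dioxygenase that oxidises methylcytosine on the way to its removal, moved opposite to Dnmt3a. It read 0.35, 0.53, 0.44 and 0.32 in controls and 0.74, 1.16, 1.01 and 0.81 in Senp2-aKO arrays. The groups did not overlap, and Tet2 rose 1.43-fold (95% interval 1.19 to 1.72; 0.52 on the log2 scale with an SE of 0.12, adjusted p = 0.0243 by limma, n = 4 in each group). Its second probe gave 0.45 (SE 0.12) and also passed over all probes (adjusted p = 0.0481). The call ended without control 1 (0.0759), control 3 (0.0618) or control 4 (0.0665). Tet3 was higher on all 4 Senp2-aKO arrays without passing (-2.05 to -1.83 and -1.74 to -1.5; 0.28, adjusted p = 0.0830), while its 2 dimmer probes gave -0.30 and -0.13. Tet1 overlapped (-0.21, 95% interval -0.55 to 0.13).

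**Figure D3:**
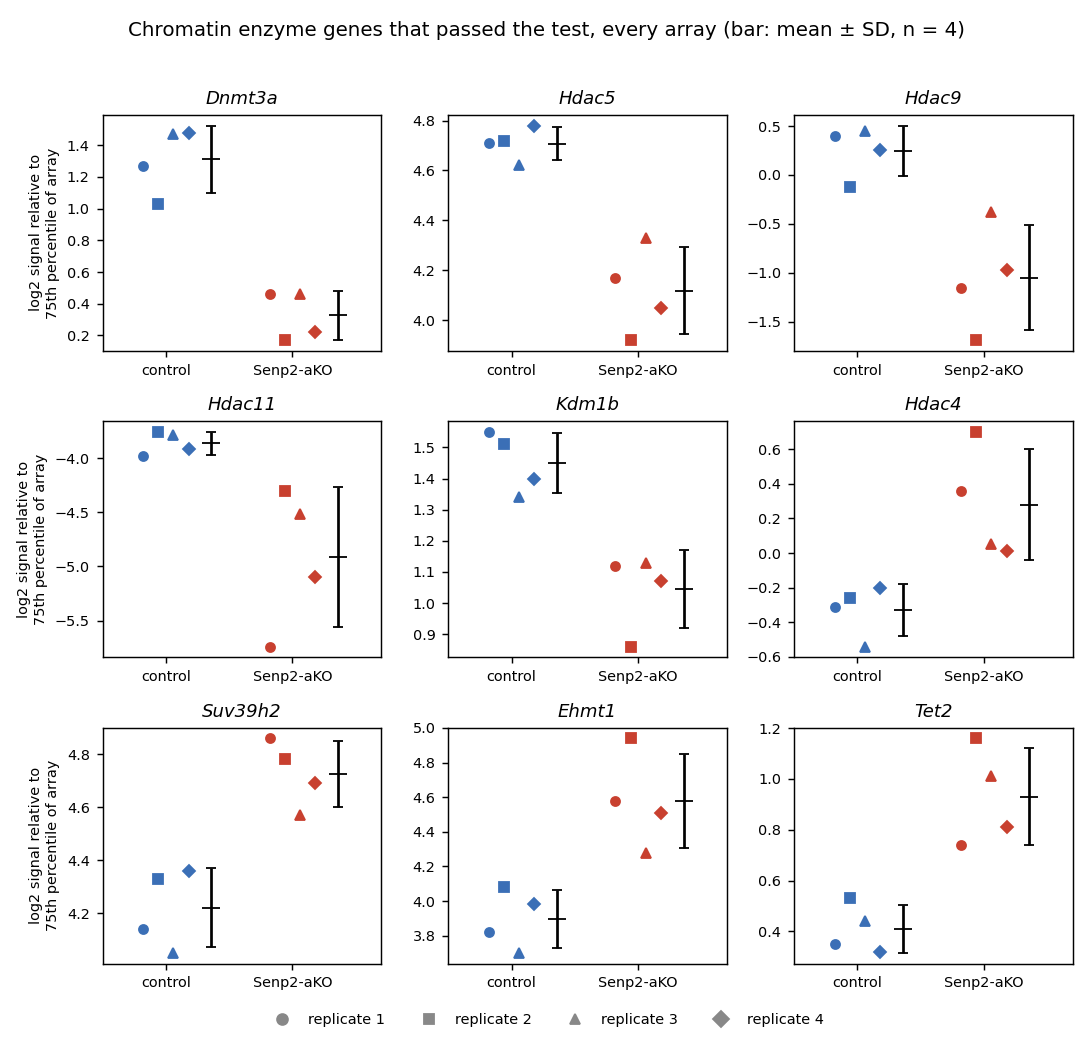
Log2 signal relative to the 75th percentile of the array (vertical axis) for the 9 genes that passed, in control (blue) and Senp2-aKO (red) arrays; marker shapes are replicate numbers and bars are mean ± SD (n = 4). In each of the 9 panels the 4 Senp2-aKO arrays lie on one side of the 4 controls; Hdac11 was not well above background on any Senp2-aKO array.

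The Senp2-aKO arrays differed more among themselves than the controls did. The median SD of the 58 genes was 0.10 in controls and 0.18 in Senp2-aKO arrays, against 0.14 and 0.24 over all genes. The array farthest from its group mean was aKO 2 for 30 of the 58 genes (51.7%, against 51.4% over all genes). It held the lowest values of Hdac5, Hdac9, Kdm1b and Sirt5 and the highest of Hdac4, Ehmt1, Tet2 and Kdm7a within its group. Without aKO 2 all 9 calls passed, and Tet3, Ezh2, Kdm2a, Kdm8 and Sirt7 passed too. Calls over all genes also increased in that omission, from 1074 to 1356 higher and from 1049 to 1472 lower. Kdm2a, for example, stood on its brighter probe at 0.38 on aKO 2, above all controls (0.30 to 0.37), and at -0.22 to 0.10 on the other 3. Its second probe read 0.12 on aKO 2, within the controls (-0.02 to 0.13), and -0.17 to 0 on the other 3.

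**Figure D4:**
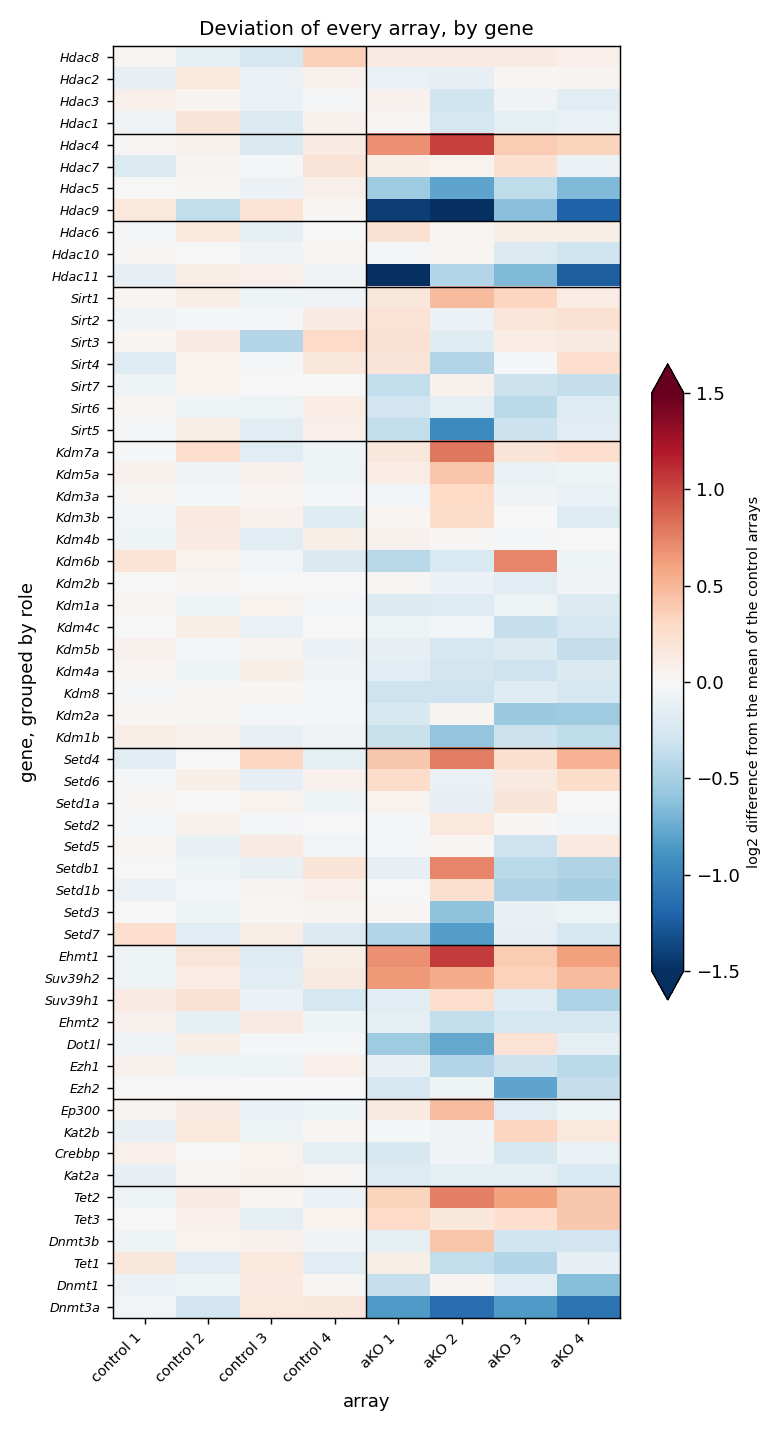
Difference of each array from the mean of the control arrays, in log2 units (colour, limited to 1.5 in either direction), for the 58 genes grouped by role (rows) and the 8 arrays (columns). Dnmt3a, Hdac5 and Hdac9 are blue and Hdac4, Ehmt1, Suv39h2 and Tet2 red across the 4 Senp2-aKO columns, and aKO 2 departs from the other 3 in Kdm2a and Setdb1.

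Partner proteins of these enzymes were counted in the same way. Of 97 measured partners 5 rose and 11 fell, with a median log2 fold change of -0.03; over all genes 7.29% rose and 7.12% fell, with a median of -0.02. Among 27 corepressor subunits and partners 1 rose and 5 fell. Rcor2, a CoREST scaffold that holds Kdm1a and Hdac1, had values of 1.64, 1.66, 1.61 and 1.64 in controls and 0.26, -1.02, 0.35 and -0.59 in Senp2-aKO arrays. It fell 3.70-fold (-1.89 on the log2 scale with an SE of 0.29, adjusted p = 0.00853 by limma, n = 4 in each group) and passed in all 8 omissions. The related Rcor3 fell (-0.68, adjusted p = 0.0205), as did Phf21a, the CoREST reader of unmethylated H3K4 (-0.44, 0.0240), and the NuRD subunit Mta3 (-0.57, 0.0296; second probe -0.18). Chosen after their values were seen, the others were the NuRD remodeller Chd4 (-0.46, 0.0310) and Nrip1, a corepressor of oxidative genes in fat, which rose (0.50, 0.0363). Of these, Rcor3 passed in 4 of 8 omissions, Chd4 in 3, and Phf21a, Mta3 and Nrip1 in 2, with adjusted p up to 0.104.

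Among 25 measured Polycomb partners 1 rose and 4 fell, where 7.29% of all genes rose and 7.12% fell. Those that fell include the reader Cbx8 (-1.02 on the log2 scale with an SE of 0.11, adjusted p = 0.00367 by limma, n = 4 in each group), Cbx6 (-0.53) and Bmi1 (-0.30, second probe -0.08). Cbx8 read -1.28, -1.27, -1.4 and -1.06 in controls and -2.16, -2.20, -2.28 and -2.44 in Senp2-aKO arrays, and passed in all 8 omissions. Cbx6 passed in 3 of 8 omissions, and Bmi1 in 1. Ring1, the ubiquitin ligase that rose (0.31, adjusted p = 0.0477) and is named after its value was seen, also passed in 1. Of 25 further genes of lysine methyltransferases and their complex subunits 2 fell. The H3K36 methyltransferase Nsd1 (-0.50, limma adjusted p = 0.0169, second probe -0.26) did not pass without control 1 or control 3 (adjusted p up to 0.0586). Pagr1a, a complex subunit and not an enzyme (-0.34, 0.0470), passed in 1 of 8 omissions. Of 17 further acetyltransferase and JmjC genes 2 rose. Jmjd1c, a relative of Kdm3a, rose 1.93-fold, from 2.07, 2.10, 2.01 and 2.01 to 3.01, 3.48, 2.66 and 2.83 (0.95 on the log2 scale with an SE of 0.17, adjusted p = 0.0130 by limma, n = 4 in each group), and passed in all 8 omissions. Riox1, a JmjC hydroxylase, rose as well (0.55, 0.0358) and passed in 3.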

How the data were processed

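Total RNA from 8 samples of inguinal white fat was measured on 1-colour (Cy3) Agilent mouse arrays, and spots were quantified in Agilent Feature Extraction 11.5.1, per the submitters' processing notes. The deposited processed signal, median signal and background are intensity values with no scaling between arrays, and the deposited flags are of the unit other (0 or 1), per the file headers. The authors' deposited matrix was not used, because its 8 columns match no label. The number of arrays limits the precision.

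Log2 processed signals were set relative to the 75th percentile of each array, spots of a probe were averaged without outlier spots, and probes well above background on at least 4 of 8 arrays were kept (30508 of 55681). Names came through RefSeq accessions (table of GRCm38.p6), which named 27656 probes; the files hold no gene symbols and no probe sequences. The brightest kept probe stood for its gene, whose own 23 further probes shared its sign in 17 cases. The group difference was tested by limma 3.58.1 under R 4.3.3, with p adjusted after Benjamini-Hochberg over 14730 genes.

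The test was tried first on simulated data with 200 changed genes. It made 127 calls there, of which 13 were false. It recovered 12 of 50 genes changed by 0.5 on the log2 scale. For changes of 1, 2 and -1 it recovered 31, 45 and 26 of 50. The genes, lists and tests were chosen with earlier results of these data known. Named genes were those that passed, the 4 nearest the threshold, a fixed set of known fat regulators and cofactors, the extremes of each role, and up to 4 partners of each list that passed; 1 partner gene is not reported here. Hdac2, Hdac7, Hdac10, Sirt6, Sirt7, Kdm2a, Kdm5b, Kdm6b, Setd2, Setdb1, Ehmt2, Suv39h1, Dot1l, Dnmt3b, Tet1 and Tet3 were named after their values were seen. Alternatives covered normalisation, background model, filters, probes, array weights, the replicate block, 2 marker covariates and omission of each array.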

Additional observations from a re-analysis of the deposited data

Results flagged for a closer look

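In 3 of 60 groups of 4 arrays tested for the 30 named genes, 1 array stood far from the other 3; chance gives about 1 in 20. Kdm3a read 1.32 on aKO 2, against 0.92 to 0.98 on the other Senp2-aKO arrays. Kdm7a read -1.04 on aKO 2, against -1.66 to -1.58. Kdm1a read 2.24 on aKO 3, against 2.11 to 2.12.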

How the results depend on the processing

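Among the 58 genes, the 4 higher and 5 lower calls became 4 and 8 with quantile normalisation and with the normexp background model (median log2 fold change -0.07; 7 of the 9 main calls passed, Hdac4 and Hdac11 did not, and Setd4 was among the higher), 3 and 3 without a filter on background, and 3 and 6 with the mean of the probes of a gene (median -0.07). With array weights they became 6 and 12. With the muscle marker mean as a covariate they became 0 and 0 (median -0.04), and with the B lymphocyte mean 5 and 7. Over all genes, 689 were lower without the filter, 1831 higher and 1932 lower with array weights, 1649 lower with the B lymphocyte mean, and 1 higher and 0 lower with the muscle mean. Among partners, the counts were 2 higher and 7 lower without the filter, 10 and 17 with array weights, 0 and 0 with the muscle mean, and 8 higher with the B lymphocyte mean. Omitting 1 array gave 0 to 5 higher and 2 to 9 lower of the 58 genes (median -0.12 to -0.07), 434 to 1356 higher and 280 to 1472 lower over all genes, and 2 to 5 higher and 3 to 11 lower partners. Some values that did not pass changed sign. Kdm3a was 0.00 with normexp, -0.05 with array weights and -0.06 to 0.07 over omissions. Ep300 was -0.01 with array weights and -0.03 to 0.18 over omissions. Sirt3 was -0.07 to 0.17 over omissions, and Hdac1 and Hdac3 were 0.16 and 0.09 with the muscle mean. The cause was not tested.

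Deviations of same-numbered samples from their group means had correlations of -0.017, -0.075, 0.142 and 0.107. The labels do not say whether the numbers pair the samples. These values cannot decide it, because samples with unlike numbers were not compared. With the replicate block, 2 of the 58 genes were higher (Ehmt1 and Tet2) and 2 lower (Dnmt3a and Hdac9), with 569 genes lower in all and 2 higher and 3 lower partners; the adjusted p of Hdac5 was then 0.05002. Gene symbols as the files give them were not tried, since the files used hold none. Signals near background limit Hdac11.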
